A study of Rattus norvegicus with 23 samples.

Results

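The comparison described here is that of the left ventricle of the spontaneously hypertensive rat (SHR) with the left ventricle of the Wistar-Kyoto rat (WKY), both at 12 months of age. Expression in total RNA was measured on Affymetrix rat genome U34 arrays, which carry sets of short oligonucleotide probes for rat genes and expressed sequences. The arrays were chosen by their titles, and 8 of the 23 arrays of the series belong to the comparison, with 4 arrays of SHR (replicates 1 to 4) and 4 arrays of WKY (replicates 1 to 4). The other 15 arrays, from both strains at 16 and 20 months, entered the fit for the estimate of the spread and were set against 12 months where that is stated. No drug, surgery or transgene is named in the labels, so the groups differ by strain alone as far as the labels go. The labels give neither the sex nor the blood pressure of the animals, and they do not say whether each array stands for a separate animal. The p-values below therefore reflect only how far these samples differ from each other within a group, which may be technical.

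SHR is an inbred strain in which blood pressure rises early in life, and WKY is the normotensive strain of related descent that is commonly used as its control. A ventricle that pumps against a raised pressure thickens its muscle fibres, and its myocytes take up again genes of the fetal heart, among them skeletal alpha-actin and atrial natriuretic peptide. With time such a ventricle can stiffen through deposition of collagen and other matrix and can fail.

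The arrays separated by strain before any test was made. On log2(intensity + 32), the first principal component of the 8 arrays took 46.5% of the variance, with the SHR arrays between -10.1 and -7.92 and the WKY arrays between 7.79 and 13.1. Correlations between arrays were 0.988 to 0.99 within SHR and 0.965 to 0.98 between the strains. WKY replicate 3 stood apart from its own group, at -13.4 on the second component, where the other 3 WKY arrays lay between 5.36 and 6.33, and it correlated at 0.98 with them while they correlated at 0.992 or more with each other. Of 16 genes of the cardiomyocyte marker list on the array, 15 had a mean intensity of at least 10 over the 8 arrays, and Ttn, the gene of a giant sarcomere protein, did not.

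**Figure D1:**
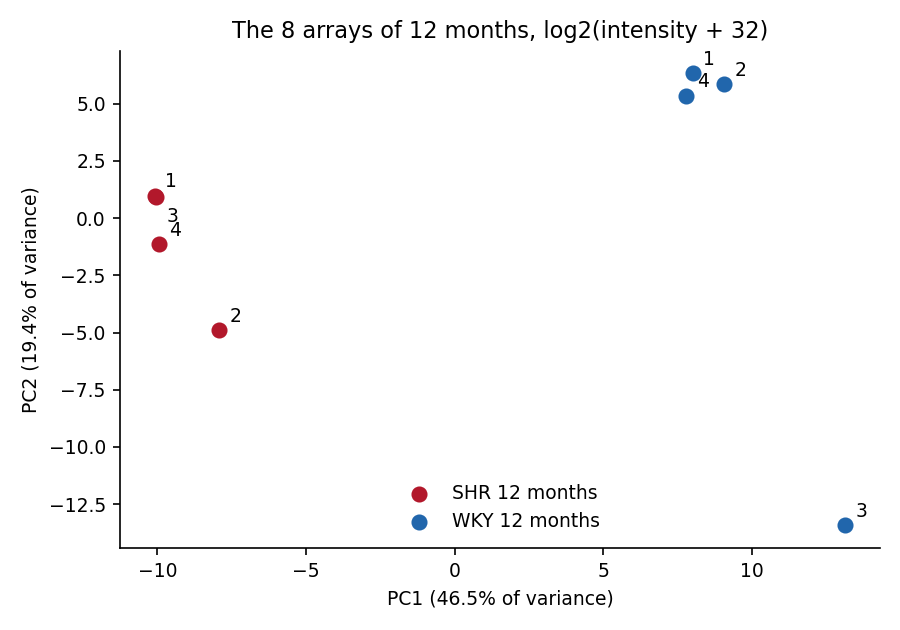
First 2 principal components of the 8 arrays of 12 months, in units of log2(intensity + 32) summed over the tested probe sets, each point 1 array and each number its replicate. The 4 SHR arrays lie on the left between -10.1 and -7.92, with replicates 1 and 3 on nearly the same point, the 4 WKY arrays on the right, and WKY replicate 3 lies alone at -13.4 on the vertical axis.

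Strain was not the only difference between the groups. The SHR arrays were hybridized on 2 days, replicates 1 and 2 on day 1 and replicates 3 and 4 on day 2, with 1 chip lot and 1 hybridization cocktail. The WKY arrays were all hybridized on day 5 with another lot and another cocktail. Each day, lot and cocktail was used for 1 strain alone, and in every result below the strain therefore cannot be told apart from the run. The 9 spiked hybridization controls had a median SHR-minus-WKY difference of 0.47 (log2, range 0.12 to 0.70). The ratio of 3' to 5' signal, a sign of RNA integrity, was 2.37 to 3.29 in SHR and 3.65 to 5.16 in WKY for hexokinase, with no overlap, while it overlapped for actin (1.21 to 1.44 in SHR, 1.15 to 1.59 in WKY) and for GAPDH (1.13 to 1.34 in SHR, 1.17 to 1.33 in WKY). The median intensity of a whole array was 11.1 to 12.3 in SHR and 9.4 to 10.5 in WKY, also without overlap. The part of these differences in the results was not tested.

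The 150 bases before the start sites of 4 genes of the contractile apparatus and the loaded heart that are described first below are shown from the rat reference (RefSeq, GRCr8). They are the genes of skeletal alpha-actin (Acta1, chr19:68784195-68784344, minus strand), atrial natriuretic peptide (Nppa, chr5:163712034-163712183, plus strand), phospholamban (Pln, chr20:33172344-33172493, plus strand) and the atrial myosin light chain (Myl7, chr14:84996625-84996774, minus strand). Capitals mark matches on either strand to the TATA box (TATAAA), the MCAT element (CATTCC) and the CArG box, which serum response factor binds in many muscle genes. The elements did not overlap.
Acta1: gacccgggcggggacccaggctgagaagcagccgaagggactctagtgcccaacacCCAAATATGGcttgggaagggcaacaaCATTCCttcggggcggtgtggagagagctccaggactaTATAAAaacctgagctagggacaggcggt
Nppa: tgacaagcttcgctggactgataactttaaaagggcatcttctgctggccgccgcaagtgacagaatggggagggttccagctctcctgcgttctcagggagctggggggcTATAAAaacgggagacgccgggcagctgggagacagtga
Pln: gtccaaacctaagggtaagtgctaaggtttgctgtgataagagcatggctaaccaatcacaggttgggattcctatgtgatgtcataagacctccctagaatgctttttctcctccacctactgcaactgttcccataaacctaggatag
Myl7: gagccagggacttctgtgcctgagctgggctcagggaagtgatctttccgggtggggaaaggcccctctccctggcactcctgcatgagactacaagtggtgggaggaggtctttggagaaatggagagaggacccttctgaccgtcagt
The Acta1 window held all 3 elements, the CArG box starting 94 bases, the MCAT element 67 bases and the TATA box 29 bases before the start. The Nppa window held a TATA box alone, 39 bases before the start, and the Pln and Myl7 windows held none of the 3 motifs in these letters. Among 33469 rat promoter windows of the same length, 8.0% held a TATA box, 7.4% an MCAT element and 0.878% a CArG box.

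Across the genome the strain difference at 12 months was broad and mostly small. Of 7280 probe sets tested with limma, 824 passed a Benjamini-Hochberg adjusted p below 0.05 (11.3%), 491 of them higher and 333 lower in SHR. At an unadjusted p below 0.05 there were 1792. With 1 probe set per gene, the one of highest mean, 451 of 4172 genes passed (10.8%), of which 243 were higher (5.82% of all genes) and 208 lower (4.99%) in SHR. The arrays of the 2 strains did not overlap for 376 of the called genes (9.01% of all genes). The median size of a called difference was 0.38 on the log2 scale, and only 7 called genes exceeded 1 upward and 3 exceeded 1 downward. The balance of directions depended on the scaling of the arrays: 59.6% of the called probe sets were higher in SHR with the deposited scaling, 47.9% after quantile normalization, 49.5% after cyclic loess and 38.1% after centring each array on its median. The number called was 562 without SHR replicate 3, 572 without SHR replicate 4 and 690 without WKY replicate 3. Without SHR replicate 3 the number called higher was 323, and without SHR replicate 4 the number called lower was 209. When each of the 8 arrays was left out in turn, 204 of the 451 genes (45.2%) were called every time. Called genes described below that lost the call in this way are named as such. With the 2 SHR arrays of day 1 alone 314 probe sets were called, and with those of day 2 alone 432. Since the tissue was whole ventricle, fewer cells of a type and less RNA per cell cannot be told apart in any lower value.

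The genes of wall stress and of the sarcomere were led by skeletal alpha-actin. Acta1, the actin of skeletal muscle that the fetal and the loaded heart also use, had intensities of 2209, 1811, 2044 and 2005 in the SHR arrays, against 868, 797, 1127 and 834 in the WKY arrays. Every SHR array lay well above every WKY array, and the mean was 2.23 times as high in SHR (log2 difference 1.14 ± 0.11 SE, limma adjusted p = 8.83e-08). Of 27 wall stress and hypertrophy genes measured, 3 were higher and 1 was lower in SHR, and of 31 sarcomere and costamere genes 3 were higher and 2 lower. The shares called, 14.8% and 16.1%, stand beside 10.8% of all genes. After quantile normalization each list had 3 genes higher and 3 lower, and with arrays centred on their medians 3 and 2 for wall stress and 3 and 4 for the sarcomere. Besides Acta1, Ppp3r1, the regulatory subunit of the phosphatase calcineurin, averaged 38.4 ± 1.6 in SHR and 19.0 ± 3.2 in WKY (SD, n = 4 each), a log2 difference of 0.47 (limma adjusted p = 6.63e-05), and its second probe set was also higher (0.32, limma adjusted p = 0.00106). The tropomyosin gene Tpm4 was higher by 0.52 (limma adjusted p = 1.31e-05), and Itga7, the laminin-binding integrin of striated muscle, was lower, at -0.43 (limma adjusted p = 0.00339). Pdlim5, a Z-disc protein, was called higher at 0.37 (limma adjusted p = 0.0124), but not without SHR replicate 3 (0.0513). The second Pdlim5 probe set passed too, without overlap (0.30, limma adjusted p = 0.00964). Myh1, a fast skeletal myosin heavy chain, had 101.1, 117.2, 121.2 and 172.5 in SHR, against 43.9, 39.7, 43.4 and 56.8 in WKY, with no overlap (log2 difference 1.02 ± 0.11 SE, limma adjusted p = 1.04e-06). Its probe set may also catch other myosin heavy chains, which are close in sequence. Csrp3, the muscle LIM protein, was called at 0.37 (limma adjusted p = 0.0205), but not without SHR replicate 4 or WKY replicate 1, 2 or 4, where the limma adjusted p reached 0.0851.

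The natriuretic peptides did not behave as 1 group. Nppa has 4 probe sets that passed the filter on dim values. The brightest had 2711, 2537, 2219 and 2481 in SHR, against 1842, 1510, 1852 and 1882 in WKY, with no overlap, but it missed the threshold (log2 difference 0.48 ± 0.18 SE, limma adjusted p = 0.0786). In a fit of the 8 arrays of 12 months alone its limma adjusted p was 0.0151. The third had 2862, 2585, 2514 and 2998 in SHR, against 1050, 812, 940 and 1037 in WKY, a log2 difference of 1.49 ± 0.17 SE (limma adjusted p = 1.17e-06). The 2 others had log2 differences of 0.69 and 0.63 (limma adjusted p = 0.0379 and 0.0194). All 4 Nppa probe sets were thus brighter on every SHR array than on any WKY array, and 3 of 4 passed. Nppb, the gene of brain natriuretic peptide, had 650, 968, 996 and 932 in SHR, against 921, 878, 778 and 836 in WKY. Its groups overlapped, with SHR replicate 1 the lowest of the 8 arrays, and the log2 difference was 0.04 ± 0.14 SE (limma adjusted p = 0.915), with its sign turned when arrays were centred on their medians.

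**Figure D2:**
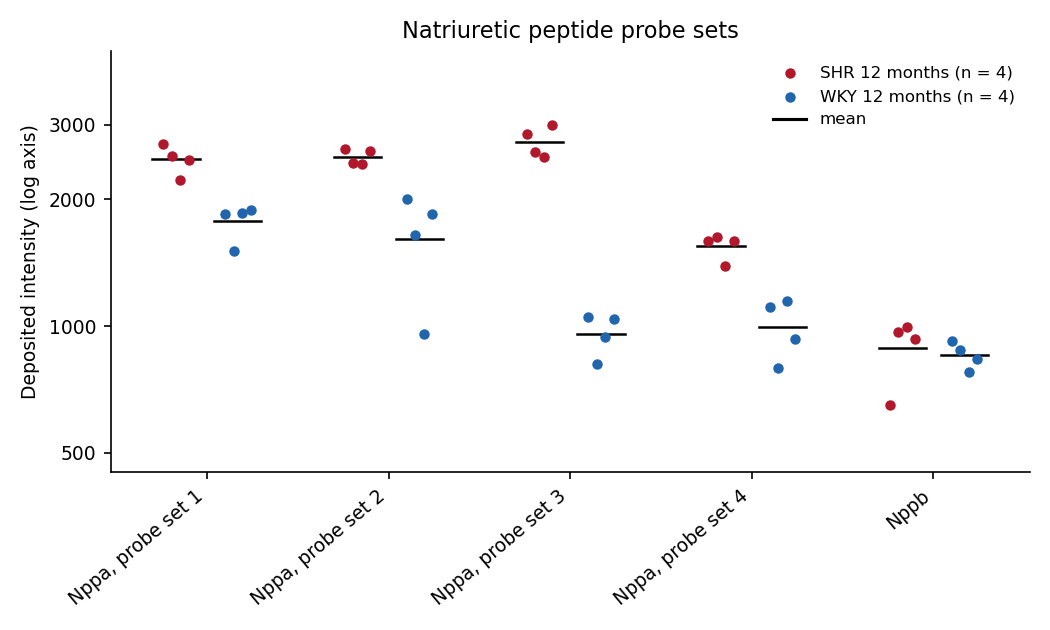
Deposited intensities on a log axis of the 4 Nppa probe sets, in order of mean brightness over the 23 arrays, and of Nppb, with 1 point per array (SHR on the left and WKY on the right of each pair) and a bar at the mean of 4 arrays. SHR lies above WKY without overlap for each Nppa probe set, and the groups overlap for Nppb.

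The cardiac myosin heavy chains differed less. Myh6, the fast adult isoform of the rodent ventricle, averaged 2352 ± 131 in SHR and 3097 ± 395 in WKY (SD, n = 4 each), and its groups did not overlap. Its log2 difference of -0.39 just passed (limma adjusted p = 0.0479), and the call was lost without any 1 of SHR replicates 1 to 4 or WKY replicates 1, 2 or 4 (limma adjusted p up to 0.154). Its 2 other probe sets missed the threshold in opposite directions, at -0.69 and 0.49 (limma adjusted p = 0.051 and 0.125). Myh7, the slow isoform, did not pass with its brighter probe set (-0.24 ± 0.14 SE, limma adjusted p = 0.29), for which 3965 ± 201 in SHR stood against 4733 ± 698 in WKY (SD, n = 4 each). It passed with its second, at -0.58 ± 0.11 SE (limma adjusted p = 0.00124). These genes lie in 1 family of near-identical sequence, so their separation by probes is uncertain.

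The atrial light chain Myl7 fell more than any other called gene. Its intensities were 24.3, 36.1, 59.6 and 96.3 in SHR, against 502, 185, 375 and 245 in WKY. The highest SHR array lay below the lowest WKY array, and both groups were spread widely (log2 difference -2.05 ± 0.33 SE, limma adjusted p = 0.000162). The second Myl7 probe set was lower as well, by -0.67 (limma adjusted p = 0.0102). Myl4, the other atrial light chain, had 10.1, 11.9, 11.5 and 18.4 in SHR, against 32, 15.1, 22.0 and 21.7 in WKY. Its groups overlapped and it missed the threshold (-0.28 ± 0.10 SE, limma adjusted p = 0.0881). In WKY ventricles Myl7 averaged 327 at 12 months, 37.6 at 16 months and 54.4 at 20 months, so the WKY group of 12 months was itself well above the later WKY groups. The 9 atrial marker genes on the array summed to 4596 to 5076 in SHR and 3610 to 4991 in WKY, and these ranges overlapped. Most of that sum was Nppa (mean 2490 in SHR and 1770 in WKY) and Pam (1670 and 1590). The sum therefore says little of the dimmer Myl7 and Myl4. Of the markers summed there, Kcna5 and Nr2f2 had a mean intensity below 10 over the 8 arrays, and the part of atrial tissue in the Myl7 values was not tested.

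Among calcium handling genes the largest difference was that of phospholamban. Phospholamban (Pln), which holds back the calcium pump of the sarcoplasmic reticulum until it is phosphorylated, had 724, 794, 842 and 825 in SHR, against 422, 384, 473 and 377 in WKY. All SHR arrays were above all WKY arrays, and the mean was 1.92 times as high (log2 difference 0.90 ± 0.10 SE, limma adjusted p = 4.25e-07). The pump itself, Atp2a2, did not pass (0.12 ± 0.14 SE, limma adjusted p = 0.684), with 3582 ± 206 in SHR and 3361 ± 718 in WKY (SD, n = 4 each). Its difference changed sign to -0.19 after quantile normalization and to -0.04 without WKY replicate 3. The dimmest of its 3 other probe sets passed at 0.41 (limma adjusted p = 0.00536) and the others did not. Of 40 calcium handling genes, 2 were higher and 4 lower (15% called, where 10.8% of all genes were). Casq2, the calcium buffer of the sarcoplasmic reticulum, was the other higher gene, at 0.40 (limma adjusted p = 0.00699). Cacna2d1, the alpha-2-delta subunit of the L-type calcium channel, had 25.9, 21.4, 23.8 and 19.8 in SHR, against 56.5, 49.4, 68.3 and 61.5 in WKY, without overlap (-0.73 ± 0.12 SE, limma adjusted p = 0.000116). Jph2, which ties the sarcoplasmic reticulum to the T-tubule, was lower by -0.62 (limma adjusted p = 0.00295), and Dhrs7c, a dehydrogenase of the sarcoplasmic reticulum, by -0.53 (limma adjusted p = 0.00575). The call of Camk2g, the fourth lower gene, was lost without 6 of the 8 arrays in turn (SHR replicates 1, 3 and 4 and WKY replicates 2, 3 and 4, limma adjusted p up to 0.109).

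Of 37 channel, pump and exchanger genes 0 were higher and 5 were lower by limma, where 4.99% of all genes were lower, and at an unadjusted p below 0.05 there were 7 higher and 7 lower. Atp1b1, the beta subunit of the sodium pump, had 584, 479, 541 and 517 in SHR, against 1010, 930, 756 and 910 in WKY, and the groups were clearly apart (log2 difference -0.73 ± 0.11 SE, limma adjusted p = 5e-05). Its 2 other probe sets missed the threshold, at 0.16 and 0.20 (limma adjusted p = 0.547 and 0.12). Slc4a3, a chloride-bicarbonate exchanger, averaged 102 ± 19 in SHR and 184 ± 16 in WKY (SD, n = 4 each), a log2 difference of -0.69 (limma adjusted p = 0.000181). The calls of 3 potassium channel genes were lost without single arrays: Kcnj11, the pore of the ATP-sensitive channel, without SHR replicate 2 or WKY replicate 3, Kcnk3 without SHR replicate 2 or 4 or WKY replicate 1 or 2, and Kcnd2 without any of the 8, with limma adjusted p up to 0.0547, 0.134 and 0.129. The second Kcnk3 probe set was lower without overlap (-0.57, limma adjusted p = 0.000218).

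Among signalling genes, the catalytic subunit of protein kinase A stood out. Prkaca, the kinase through which beta-adrenergic signals phosphorylate phospholamban and other proteins, had 305, 266, 219 and 260 in SHR, against 500, 491, 484 and 447 in WKY. All SHR arrays were below all WKY arrays (log2 difference -0.81 ± 0.11 SE, limma adjusted p = 2.8e-05), and the second probe set was lower too (-0.42, limma adjusted p = 0.00292). Akip1, which binds this kinase, was higher, with 121, 129, 106 and 114 in SHR, against 40.7, 48.2, 53.0 and 31.8 in WKY, again without overlap (0.99 ± 0.13 SE, limma adjusted p = 6.68e-06). All 3 other Akip1 probe sets were positive and 2 of them passed. Maoa, which breaks down noradrenaline and serotonin, had 1018, 959, 1156 and 1121 in SHR, against 512, 438, 527 and 470 in WKY, a mean 2.19 times as high (1.08 ± 0.13 SE, limma adjusted p = 2.77e-06). Its second probe set was also higher (0.53, limma adjusted p = 0.0029). Of 47 adrenergic, muscarinic and adenosine genes 3 were higher and 2 lower (10.6% called, where 10.8% of all genes were), the others being Gna12, a G protein alpha subunit (0.44, limma adjusted p = 0.00293), Adcy3 and Gnai2. The call of Adcy3 was lost without 6 of the 8 arrays in turn (all but SHR replicate 1 and WKY replicate 4) and that of Gnai2 without WKY replicate 2, with limma adjusted p up to 0.116 and 0.0514.

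Caveolin 1 was among the most different genes. Cav1, which builds the caveolae of endothelial and other cells, had 113, 80.0, 66.1 and 70.0 in SHR, against 13.5, 17.4, 15.3 and 12.9 in WKY. The lowest SHR array was several times as bright as the highest WKY array (log2 difference 1.27 ± 0.15 SE, limma adjusted p = 1.4e-06). Among 60 growth factor and TGF-beta genes 3 were higher and 3 lower, 6 called in all, where 10.8% of all genes were called, and without WKY replicate 3 there were 1 and 3. Fgf1, a growth factor of myocytes and vessels, was higher by 0.54 (limma adjusted p = 0.00124), and Pik3r1, the regulatory subunit of phosphatidylinositol 3-kinase, was lower by -0.39 (limma adjusted p = 0.000371), with intensities of 2.7 to 6.2 in SHR and 11.2 to 16.9 in WKY, near the dim end of the arrays. The calls of Acvr2b and Vegfa (higher) and of Pdgfa and Igfbp3 (lower) were lost, Acvr2b without SHR replicate 2, 3 or 4 or WKY replicate 1, 2 or 3, Vegfa without SHR replicate 2, 3 or 4 or WKY replicate 2, 3 or 4, Pdgfa without WKY replicate 1 and Igfbp3 without SHR replicate 1, 2 or 4 or WKY replicate 1, 2 or 4 (limma adjusted p up to 0.0519 to 0.174). Another Vegfa probe set passed in the same direction (0.75, limma adjusted p = 0.0147), and the rest did not pass. Of 44 renin-angiotensin, endothelin, nitric oxide and natriuretic genes 2 were higher and 3 lower (11.4% called), namely Avpr2 and Calcrl (higher) and Pde4a, Pde2a and Ece1 (lower). Each of these calls was lost without single arrays, Avpr2 without SHR replicate 1, 3 or 4 or WKY replicate 2 or 3, Calcrl without any of the 8 arrays, Pde4a without SHR replicate 2 or 4 or WKY replicate 1, Pde2a without SHR replicate 2, 3 or 4 or WKY replicate 3 and Ece1 without SHR replicate 2, 3 or 4 or WKY replicate 1, 2 or 3 (limma adjusted p up to 0.0574 to 0.104), and without WKY replicate 3 the counts were 0 higher and 1 lower. The second Pde4a probe set passed too (-0.32, limma adjusted p = 0.0267). Angiotensinogen (Agt) and angiotensin-converting enzyme (Ace) did not pass, at -0.18 ± 0.13 SE and 0.26 ± 0.10 SE (limma adjusted p = 0.409 and 0.101).

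Of 41 extracellular matrix genes 9 were higher and 1 was lower in SHR, and of 28 matrix protease and inhibitor genes 7 were higher and 1 was lower, where 5.82% of all genes were higher. The 9 matrix genes include Sparc, whose probe sets disagree as given below. Without WKY replicate 3 these counts were 7 and 1 for the matrix and 6 and 0 for the proteases, with the hybridization day as a random block 5 matrix genes were higher and 1 lower, and with arrays centred on their medians 5 were higher and 3 lower. The median log2 difference of the matrix list was 0.096, against 0.024 over all genes. Thbs4, a thrombospondin of the loaded heart, had 54.7, 44.1, 20.6 and 38.5 in SHR, against 3.7, 5.6, 2.2 and 4.1 in WKY. The groups were far apart although the gene was dim in WKY (log2 difference 0.97 ± 0.16 SE, limma adjusted p = 0.000156, on a scale that understates dim genes). Plod2, which hydroxylates collagen lysines for cross-links, averaged 28.9 ± 2.2 in SHR and 13.5 ± 0.5 in WKY (SD, n = 4 each), a log2 difference of 0.42 (limma adjusted p = 0.000109). Lamc1, a laminin chain of the basement membrane, was higher by 0.73 (limma adjusted p = 0.000726), while Lamb2, another laminin chain, was lower by -0.50 (limma adjusted p = 0.00952).

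Not every matrix gene gave 1 answer across its probe sets. Sparc, a collagen-binding protein, had 2643, 2745, 2920 and 3308 in SHR, against 1935, 1936, 1252 and 2066 in WKY, with its brightest probe set (0.70 ± 0.16 SE, limma adjusted p = 0.00389). Its 3 other probe sets were all lower in SHR, at -0.28, -0.33 and -0.53, and the last of them passed (limma adjusted p = 0.000662), so no direction can be given for Sparc. Decorin (Dcn), a collagen-binding proteoglycan, was called with its brightest probe set at 0.46 (limma adjusted p = 0.0399), where WKY replicate 3, at 1867, lay among the SHR arrays, which ran between 1729 and 2151. Its second probe set separated the strains fully, with 565, 617, 543 and 555 in SHR, against 339, 307, 262 and 333 in WKY (0.82 ± 0.09 SE, limma adjusted p = 5.11e-07).

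The fibrillar collagens were close to the threshold or short of it. Col3a1 was higher by 0.55 ± 0.17 SE (limma adjusted p = 0.0424), with 223, 158, 152 and 141 in SHR, against 134, 113, 67.5 and 110 in WKY, and the call was lost without SHR replicate 1, 2 or 3 or WKY replicate 2, 3 or 4 (limma adjusted p up to 0.163). Col1a1 and Col1a2 did not pass, at 0.41 ± 0.22 SE and 0.31 ± 0.15 SE (limma adjusted p = 0.255 and 0.213), and fibronectin (Fn1) was at 0.04 ± 0.10 SE with its brightest probe set (limma adjusted p = 0.864), a sign that turned when arrays were centred on their medians, and passed with a dimmer one (0.24, limma adjusted p = 0.0355). Periostin (Postn) averaged 11.5 ± 2.7 in SHR and 2.6 ± 1.3 in WKY (SD, n = 4 each) and osteopontin (Spp1) 12.2 ± 2.1 in SHR and 5.0 ± 0.5 in WKY. Neither group pair overlapped, and both missed the threshold (limma adjusted p = 0.0585 and 0.0541). Biglycan (Bgn), matrix Gla protein (Mgp) and tenascin C (Tnc) were also called higher. Single arrays ended these calls, Bgn without SHR replicate 1, Mgp without SHR replicate 1, 2 or 4 or WKY replicate 1 or 2, Tnc without SHR replicate 1, 3 or 4 or WKY replicate 2 or 3 and Dcn without SHR replicate 1, 2 or 4 or WKY replicate 1, 2 or 4 (limma adjusted p up to 0.0528 to 0.131). The second Bgn probe set passed too (0.50, limma adjusted p = 0.0169).

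Among the proteases, cathepsin B (Ctsb), a lysosomal cysteine protease, had 228, 219, 186 and 195 in SHR, against 131, 112, 155 and 121 in WKY, without overlap (0.56 ± 0.11 SE, limma adjusted p = 0.00124). Ctsk, a cathepsin that cleaves collagen, was higher by 0.29 (limma adjusted p = 0.0124). The membrane sheddases Adam10 and Adam17 were higher by 0.28 and 0.29 (limma adjusted p = 0.00129 and 0.0061) at intensities of 9.4 to 19.3 in SHR and 1.0 to 7.8 in WKY, near the dim end of the arrays. Timp1, an inhibitor of matrix metalloproteinases, averaged 69.7 ± 3.8 in SHR and 47.4 ± 4.9 in WKY (SD, n = 4 each) and was called at 0.36 (limma adjusted p = 0.0356). Its groups did not overlap, yet the call was lost without any 1 of SHR replicates 1 to 4 or WKY replicate 2 or 4 (limma adjusted p up to 0.103). The second Timp1 probe set passed too, also without overlap (0.59, limma adjusted p = 0.0155).

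The calls of A2m and Serpine2 (higher) and Ctsd (lower) were also lost without single arrays, A2m without SHR replicate 3 or WKY replicate 3 or 4, Serpine2 without WKY replicate 1 and Ctsd without SHR replicate 1, 2, 3 or 4 or WKY replicate 1, 2 or 3 (limma adjusted p up to 0.0534 to 0.144).

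The 11 fibroblast markers on the array summed to 2552 to 2987 in SHR and 1945 to 2410 in WKY, without overlap, with Ddr2 and Tcf21 below a mean intensity of 10. Most of that sum was Dcn alone (mean 1930 in SHR and 1410 in WKY). The log2 difference was positive for 10 of the 11, while Pdgfra averaged 60.0 in SHR and 69.5 in WKY. The part of these markers in the matrix results was not tested. Of the 11 fibroblast markers, 3 were higher (Dcn, Col3a1 and S100a4) and 0 lower (27.3% called, where 10.8% of all genes were). Of these 3, 2 are matrix genes counted above. The call of S100a4 was lost without SHR replicate 2 or 4 or WKY replicate 1 (limma adjusted p up to 0.0724). The calls of Dcn and Col3a1 were lost without single arrays too, as given above. After quantile normalization this list had 1 gene higher and 0 lower. It had the same counts with arrays centred on their medians and with the hybridization day as a random block.

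Among 66 genes of inflammation, complement and antigen presentation 6 were higher and 3 lower (13.6% called, where 10.8% of all genes were), and after quantile normalization 4 were higher and 4 lower. RT1-CE16, a class I histocompatibility gene, had 1505, 1595, 1363 and 1395 in SHR, against 833, 759, 1075 and 840 in WKY, with no overlap (0.73 ± 0.12 SE, limma adjusted p = 0.000169). Class I genes are many and alike in the rat, so the probe set may read several of them. C1qb, a chain of complement C1q made by macrophages, averaged 137 ± 29 in SHR and 76.4 ± 18.0 in WKY (SD, n = 4 each), and its lowest SHR array, 110, was just above the highest WKY array, 102 (0.64 ± 0.14 SE, limma adjusted p = 0.00254). Its second probe set was higher as well (0.46, limma adjusted p = 0.0271). Pecam1, an adhesion molecule of endothelium, and Anxa1, the annexin that restrains inflammation, were higher by 0.36 and 0.33 (limma adjusted p = 0.00966 and 0.0132). Icam2, another adhesion gene of endothelium, was lower, as given below. Mx1, an interferon-induced GTPase, was lower by -0.39 (limma adjusted p = 0.00798). The calls of C1s and Alox5ap (higher) and of Tap1 and RT1-DMb (lower) were lost, C1s without SHR replicate 1 or WKY replicate 2 or 4, Alox5ap without SHR replicate 1 or WKY replicate 3, Tap1 without SHR replicate 1 or 2 or WKY replicate 1, 2 or 4 and RT1-DMb without SHR replicate 1, 3 or 4 or WKY replicate 3 (limma adjusted p up to 0.0827 to 0.131). The second Tap1 probe set passed too, without overlap (-0.38, limma adjusted p = 0.00499). The 11 macrophage and monocyte markers summed to 966 to 1219 in SHR and 842 to 933 in WKY, without overlap and with Csf1r, Itgam, Fcgr2b and Aif1 below a mean of 10. Of them C1qb and Lyz2, the macrophage lysozyme, were higher (18.2% called, where 10.8% of all genes were). The call of Lyz2 was lost without SHR replicate 4 or WKY replicate 2 or 3 (limma adjusted p up to 0.0828). The part of these markers in the results of this group was not tested. Tpsb2, a mast cell tryptase, was higher with 62.6, 67.1, 67.0 and 73.4 in SHR, against 42.2, 49.1, 30.3 and 46.4 in WKY (0.43 ± 0.09 SE, limma adjusted p = 0.00136).

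Of 54 fatty acid genes 2 were higher and 5 lower (13% called, where 10.8% of all genes were). Cpt2, the inner carnitine palmitoyltransferase of mitochondria, had 257, 222, 270 and 216 in SHR, against 352, 347, 378 and 346 in WKY, without overlap (-0.51 ± 0.10 SE, limma adjusted p = 0.000934). Acadvl, which starts beta-oxidation of very long chains, was lower by -0.61 (limma adjusted p = 0.00183), and Hadha, the trifunctional protein alpha subunit that carries on the same cycle, by -0.52 (limma adjusted p = 0.00313). The second Hadha probe set was lower too (-0.47, limma adjusted p = 0.0169), while another, dimmer one had the opposite sign and did not pass (0.34, limma adjusted p = 0.175). Ech1 and Acads were also called lower, but Ech1 was lost without SHR replicate 3 or 4 or WKY replicate 3 and Acads without SHR replicate 3 or 4 or WKY replicate 1, 2 or 4 (limma adjusted p up to 0.0695 and 0.112). Pdk4, which switches off pyruvate oxidation, was higher, with 20.6, 13.5, 34.8 and 24.3 in SHR, against 1.8, 1.8, 6.4 and 4.3 in WKY (0.62 ± 0.10 SE, limma adjusted p = 0.000212). Hadh was also higher, at 0.28 and at intensities of 6.3 to 13.3 in SHR and 1.1 to 4.3 in WKY (limma adjusted p = 0.0122). The fatty acid transporter Cd36 did not pass (0.17 ± 0.13 SE, limma adjusted p = 0.474).

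Among genes of sugar metabolism, enolase differed most. Eno1, the enolase isoform of fetal and non-muscle tissue, had 1083, 1052, 1071 and 1030 in SHR, against 623, 588, 666 and 605 in WKY (0.74 ± 0.09 SE, limma adjusted p = 2.39e-06). The spread within each strain was small beside the gap between them. The second Eno1 probe set had 945, 888, 890 and 839 in SHR, against 316, 318, 383 and 307 in WKY, an even wider gap (1.35 ± 0.09 SE, limma adjusted p = 7.93e-11). Of 36 glucose uptake and glycolysis genes 2 were higher (Eno1 and Pdk4) and 4 lower (16.7% called, where 10.8% of all genes were). Pfkm, the muscle phosphofructokinase, averaged 587 ± 62 in SHR and 909 ± 39 in WKY (SD, n = 4 each), a log2 difference of -0.61 (limma adjusted p = 0.00742), and Pygm, muscle glycogen phosphorylase, was lower by -0.46 (limma adjusted p = 0.00512). A dimmer Pfkm probe set had the opposite sign and did not pass (0.18, limma adjusted p = 0.44). Hk1 was called lower but not without SHR replicate 2 or 4 or WKY replicate 3 (limma adjusted p up to 0.0693), and Slc16a1, a lactate transporter, was called lower but not without any 1 of the arrays other than WKY replicate 3 (up to 0.14). The other probe sets of both genes had the opposite sign and did not pass, at 0.28 for Hk1 and 0.38 for Slc16a1 (limma adjusted p = 0.0612 and 0.11). Without WKY replicate 3 this list had 3 genes higher and 7 lower.

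Oxidative phosphorylation and citrate cycle genes passed at a share of 9.59%, near the 10.8% of all genes. Of 73 measured, 3 were higher and 4 lower, and after quantile normalization 2 were higher and 10 lower. The complex I subunits Ndufs7 and Ndufv2 were lower by -0.50 and -0.58 (limma adjusted p = 0.00517 and 0.00609), with Ndufv2 at 1064, 1049, 1083 and 1086 in SHR, against 1475, 1995, 1220 and 1907 in WKY. The SHR arrays lay close together and the WKY arrays did not. Atp5if1, the inhibitor of the ATP synthase, was lower by -0.42 (limma adjusted p = 0.0103), and the cytochrome oxidase subunit Cox5a was higher by 0.72 (limma adjusted p = 0.00129). The calls of Mdh2 and Ndufs1 (higher) and Got2 (lower) were lost, Mdh2 without SHR replicate 3 or WKY replicate 3, Ndufs1 without SHR replicate 1 or 3 or WKY replicate 1 or 3 and Got2 without SHR replicate 2 or 4 or WKY replicate 1, 2 or 4 (limma adjusted p up to 0.0598 to 0.146).

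Of 36 amino acid genes 3 were higher and 5 lower, 22.2% in all against 10.8% of all genes. Aldh6a1, which oxidizes the semialdehyde of valine breakdown, had 218, 141, 223 and 160 in SHR, against 63.2, 56.7, 38.3 and 41.8 in WKY. The mean was 3.71 times as high in SHR and the groups were far apart (1.40 ± 0.14 SE, limma adjusted p = 2.41e-07). Bcat2, the first step of branched-chain breakdown, was lower by -0.46 (limma adjusted p = 0.00154), and Pcca, a propionyl-CoA carboxylase subunit further down, by -0.39 (limma adjusted p = 0.00569). Amd1, which feeds polyamine synthesis, had 17.4, 17.2, 19.7 and 27.1 in SHR, against 60.4, 73.2, 47.4 and 61.9 in WKY, without overlap (-0.82 ± 0.09 SE, limma adjusted p = 4.25e-07). Mat2a, which makes S-adenosylmethionine, its substrate, was higher by 0.41 (limma adjusted p = 0.00163). Besides Got2, the calls of Gatm (higher) and Bckdhb (lower) were lost, Gatm without WKY replicate 1 and Bckdhb without SHR replicate 1, 3 or 4 or WKY replicate 3 (limma adjusted p up to 0.0527 to 0.145).

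Lipid and cholesterol synthesis genes passed in 2 of 29 cases (6.9% called, where 10.8% of all genes were). Apoe, the apolipoprotein of remnant particles that macrophages also make, had 622, 728, 558 and 650 in SHR, against 356, 321, 400 and 337 in WKY (0.80 ± 0.11 SE, limma adjusted p = 3.13e-05), and the second probe set was also higher (0.51, limma adjusted p = 0.0046). Dgat1, which catalyses the last step of triglyceride synthesis, was lower by -0.61 (limma adjusted p = 0.000382). Cidea, a lipid droplet protein, had 114, 124, 119 and 120 in SHR, against 202, 229, 321 and 176 in WKY, the SHR arrays nearly alike and all below WKY (-0.78 ± 0.11 SE, limma adjusted p = 3.65e-05). The adipocyte hormone Lep was higher by 0.43 (limma adjusted p = 0.00323), and the adipocyte marker sums overlapped between strains (1746.9 to 1877.7 in SHR, 1646.8 to 1747.4 in WKY).

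Of 47 glutathione, xenobiotic and epoxide genes 4 were higher and 2 lower (12.8% called, where 10.8% of all genes were). Apart from Maoa, Gsta1 was higher by 0.40 (limma adjusted p = 0.0022) and Gstm2 lower by -0.56 (limma adjusted p = 0.00124), both glutathione transferases of families whose members cross-hybridize easily. The calls of Ephx1 (higher) and Gss (lower) were lost, Ephx1 without SHR replicate 2 or 3 or WKY replicate 2 or 3 and Gss without SHR replicate 3 or WKY replicate 1 or 4 (limma adjusted p up to 0.0847 to 0.101). Gstm2 was lower with its second probe set too (-0.61, limma adjusted p = 0.000108). Among 28 genes of oxidative stress defence 2 were higher and 1 lower, 10.7% called, near the 10.8% of all genes. Txnip, which binds and inhibits thioredoxin, had 139, 215, 228 and 193 in SHR, against 423, 315, 464 and 473 in WKY, without overlap (-1.0 ± 0.20 SE, limma adjusted p = 0.00124). A dimmer Txnip probe set did not pass (0.17, limma adjusted p = 0.541). Xdh, the xanthine oxidoreductase, was higher by 0.35 (limma adjusted p = 0.013), and the call of Gpx3, the plasma glutathione peroxidase, at 0.59, was lost without SHR replicate 1, 2 or 4 or WKY replicate 1 or 3 (limma adjusted p up to 0.101), while its second probe set passed at 0.60 (limma adjusted p = 0.000686).

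Among 37 immediate early and stress response genes 6 were higher and 2 lower (21.6% called, where 10.8% of all genes were), and after quantile normalization 4 and 2. Nr4a1, an orphan nuclear receptor induced within minutes by many stimuli, had 230, 81.3, 227 and 105 in SHR, against 49.2, 36.8, 36.6 and 27.9 in WKY. Every SHR array was above every WKY array, with replicates 1 and 3 far above the other SHR arrays (1.38 ± 0.28 SE, limma adjusted p = 0.00144). Its second probe set was higher too (0.71, limma adjusted p = 0.0134). Atf3, a stress-induced transcription factor, was higher by 0.45 (limma adjusted p = 0.0122). Klf9, a glucocorticoid-induced transcription factor, and Zfp36l1, which destabilizes mRNAs with AU-rich elements, were lower by -0.71 and -0.79 (limma adjusted p = 0.00943 and 0.000649), Klf9 with 129, 107, 84.8 and 82.9 in SHR, against 203, 184, 137 and 222 in WKY. The calls of Junb, Sgk1, Tef and Zfp36, all higher, were lost, Junb without SHR replicate 3 or WKY replicate 3, Sgk1 without SHR replicate 3 or 4, Tef without SHR replicate 1, 2, 3 or 4 or WKY replicate 2, 3 or 4 and Zfp36 without SHR replicate 1, 3 or 4 or WKY replicate 4 (limma adjusted p up to 0.0622 to 0.139).

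Among the largest falls were 3 chaperone genes. Dnaja3, a mitochondrial partner of the HSP70 chaperones, had 29.0, 24.5, 10.1 and 13.5 in SHR, against 55.1, 76.1, 72.3 and 55.2 in WKY (-0.92 ± 0.11 SE, limma adjusted p = 2.92e-06). Trap1, the mitochondrial member of the HSP90 family, had 80.2, 76.3, 103 and 90.1 in SHR, against 182, 189, 131 and 183 in WKY (-0.76 ± 0.10 SE, limma adjusted p = 6.68e-06). Neither pair of groups overlapped, although WKY replicate 3 was the lowest WKY array for Trap1. Dnaja4, a cytosolic partner of the HSP70 chaperones, was lower by -0.76 (limma adjusted p = 9.13e-06), while its second probe set did not pass (-0.01, limma adjusted p = 0.973). These 3 genes were picked by the size of their fall and are not on the heat shock list. Of 31 genes on that list 3 were higher and 1 lower (Hsp90b1, Dnajb1, Dnaja2 and Hsph1, 12.9% called, where 10.8% of all genes were). Each of those 4 calls was lost without single arrays, Hsp90b1 without SHR replicate 1 or 3 or WKY replicate 2, 3 or 4, Dnajb1 without SHR replicate 1, 2, 3 or 4 or WKY replicate 2 or 3, Dnaja2 without SHR replicate 1, 2, 3 or 4 or WKY replicate 2, 3 or 4 and Hsph1 without SHR replicate 3 or 4 or WKY replicate 1, 2 or 4 (limma adjusted p up to 0.092 to 0.145), and limma called 0 genes of that list with the hybridization day as a random block. Without WKY replicate 3 the list had 0 higher and 4 lower genes. At an unadjusted p below 0.05 it had 5 higher and 10 lower. The second Dnajb1 probe set passed too, without overlap (0.32, limma adjusted p = 0.00786).

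In the apoptosis and ubiquitin proteasome list 3 genes were higher and 5 lower of 46 (17.4% called, where 10.8% of all genes were). Bnip3l, a mitochondrial receptor for autophagy, was lower by -0.44 (limma adjusted p = 0.00316), as was Psme2, a subunit of the interferon-induced proteasome activator (-0.37, limma adjusted p = 0.00488). The ubiquitin-conjugating enzyme Ube2g1 was higher with both of its probe sets (0.43 and 0.36, limma adjusted p = 0.000649 and 0.00341). The calls of Casp6 and Uchl1 (higher) and of Psmb5, Psmc2 and Trim54 (lower) were lost, Casp6 without SHR replicate 1 or WKY replicate 3, Uchl1 without SHR replicate 2, 3 or 4 or WKY replicate 1, 3 or 4, Psmb5 without SHR replicate 1 or 3, Psmc2 without SHR replicate 3 or 4 or WKY replicate 3 and Trim54 without SHR replicate 2, 3 or 4 or WKY replicate 2 or 3 (limma adjusted p up to 0.056 to 0.166). With all 3 of its probe sets Psmb5, a proteasome subunit, was lower in SHR and passed.

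Several of the genes that differed most belong to none of these lists. Kctd13, an adaptor of cullin ubiquitin ligases, had the largest rise, with 2478, 508, 214 and 1285 in SHR, against 53.1, 93.0, 38.5 and 64.7 in WKY. The groups did not overlap, but the SHR arrays were spread over a wide range (3.14 ± 0.77 SE, limma adjusted p = 0.00811), and the call was lost when only the SHR arrays of day 2 were used (limma adjusted p = 0.0905). The 2 other Kctd13 probe sets missed the threshold, at -0.06 and -0.14 (limma adjusted p = 0.778 and 0.213). Arhgap1, a GTPase-activating protein, had 27.7, 10.6, 12.5 and 12.8 in SHR, against 106, 104, 59.8 and 94.3 in WKY (-1.35 ± 0.16 SE, limma adjusted p = 1.97e-06), and its other, very dim probe set did not pass (0.06, limma adjusted p = 0.543). Hba-a3, an alpha globin gene, had 8.7, 3.4, 3.9 and 5.6 in SHR, against 45.4, 45.5, 55.3 and 33.8 in WKY (-1.04 ± 0.10 SE, limma adjusted p = 6.19e-08). Of the 6 red blood cell markers measured 0 passed limma (1 at an unadjusted p below 0.05), where 10.8% of all genes did. Their sums overlapped (1581 to 2200 in SHR, 1364 to 1710 in WKY). Globin genes are alike in sequence, so the gene behind the Hba-a3 probe set is uncertain.

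Emp1, an epithelial membrane protein, averaged 67.8 ± 6.3 in SHR and 19.1 ± 3.7 in WKY (SD, n = 4 each), a log2 difference of 0.97 (limma adjusted p = 3.03e-08). Dcaf6, a nuclear receptor cofactor, averaged 216 ± 33 in SHR and 96.0 ± 8.5 in WKY (0.95, limma adjusted p = 2.63e-06). Kif13a, a kinesin motor, averaged 60.8 ± 8.2 in SHR and 18.4 ± 2.5 in WKY (0.88, limma adjusted p = 4.59e-06). The groups did not overlap for any of these 3 genes. The ribosomal protein genes Rpl17 and Rps27l were each higher by 0.89 (limma adjusted p = 0.000324 and 9.96e-05), and such genes have many processed copies that share sequence. Ttc3, a ubiquitin ligase, averaged 44.9 ± 4.9 in SHR and 106 ± 16 in WKY (-0.84, limma adjusted p = 3.76e-06), and Ptgr1, a prostaglandin reductase, was lower by -0.72 (limma adjusted p = 0.00016). The endothelial adhesion gene Icam2 was lower by -0.54 (limma adjusted p = 1.04e-05) at 1.6 to 4.4 in SHR and 12.2 to 22.4 in WKY, and Chrna1, a subunit of the muscle acetylcholine receptor, was higher by 0.65 (limma adjusted p = 0.000262).

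**Figure D3:**
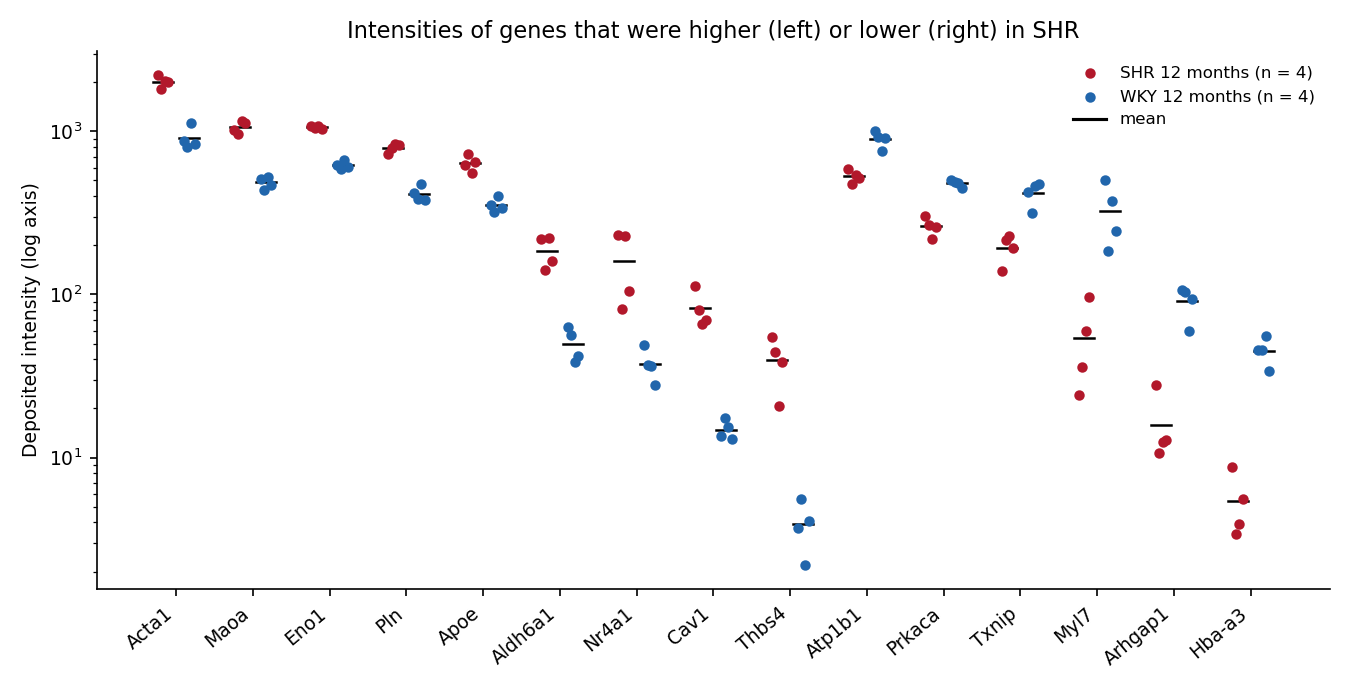
Deposited intensities on a log axis of 15 genes, 9 higher in SHR on the left and 6 lower on the right, with 1 point per array (SHR left and WKY right of each pair) and a bar at the mean of 4 arrays. The groups do not overlap for any of the 15 genes.

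Of 11 genes that studies of SHR genetics have named as candidates, 0 passed limma with their brightest probe sets (4 at an unadjusted p below 0.05), where 10.8% of all genes did, and 1 passed without WKY replicate 3. The soluble epoxide hydrolase gene Ephx2 had 89.9, 67.4, 102 and 69.4 in SHR, against 56.0, 66.0, 31.7 and 65.7 in WKY, missing the threshold without overlap (0.40 ± 0.15 SE, limma adjusted p = 0.0769). Its 3 other probe sets were all higher and all passed, at 0.49, 0.26 and 0.31 (limma adjusted p = 0.000363, 0.00208 and 0.0204). The glutathione transferase gene Gstm1 did not pass with its brightest probe set (0.31 ± 0.12 SE, limma adjusted p = 0.11) and passed with its second (0.38, limma adjusted p = 0.00883). It is the gene of this list that passed when WKY replicate 3 was left out (limma adjusted p = 0.0331).

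**Figure D4:**
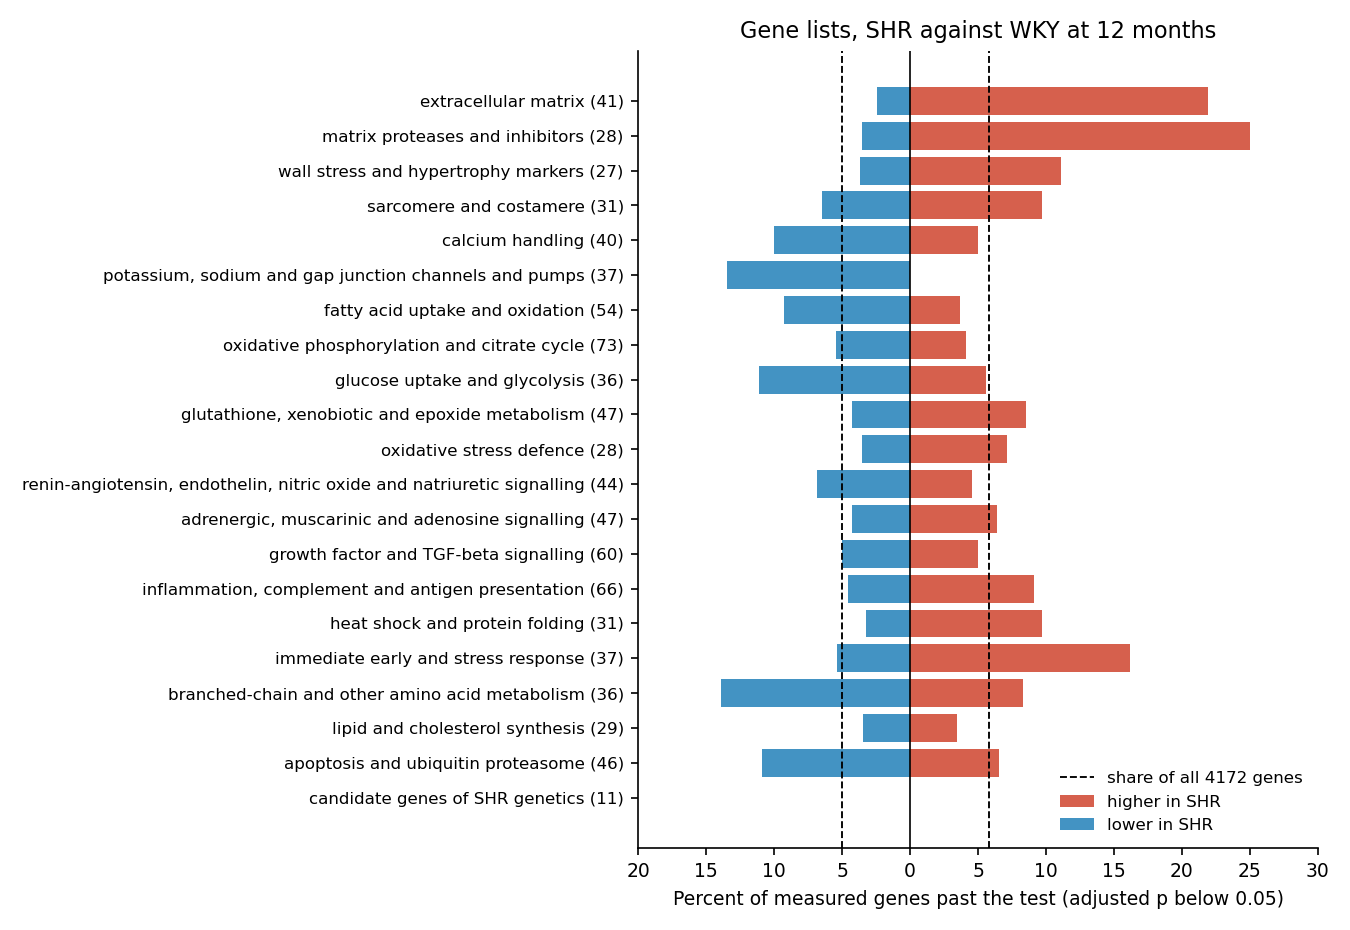
Share of measured genes of each list (number measured in brackets) that passed limma at an adjusted p below 0.05, higher in SHR to the right and lower in SHR to the left, in percent. Dashed lines mark the shares over all 4172 genes, 5.82% higher and 4.99% lower, and the bars of the 2 matrix lists and of the immediate early list reach farthest to the right.

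At the later ages most of these differences had the same direction. Of the 824 probe sets called at 12 months, 96.5% had the same sign at 16 months and 94.3% at 20 months. Called in the same direction again were 556 at 16 months (67.5% of the calls of 12 months and 39.5% of those of 16 months) and 499 at 20 months (60.6% and 39.5%). Over all 7280 probe sets, 1408 (19.34%) were called in either direction at 16 months and 1263 (17.35%) at 20 months. The share with the same sign over all probe sets was not counted. There were 433 called in 1 direction at all 3 ages. These comparisons share no arrays with each other, but they share the spread of 1 fit, and the run differs between the strains at each age. The WKY arrays of 12 and 16 months were all hybridized on day 5 with the same lot and cocktail. SHR replicates 3 and 4 of 12 months shared day 2 with SHR replicates 1 and 2 of 16 months. The part of the shared run in this agreement was not tested. A probe set of Calr and that of Tsc22d1 were called in opposite directions at 12 months and at a later age.

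The strain difference at 12 months was tested against the mean of the differences at 16 and 20 months, and 11 of 7280 probe sets passed (0.151%, limma adjusted p below 0.05), 1 with a higher and 10 with a lower SHR-minus-WKY difference at 12 months than later. At an unadjusted p below 0.05 there were 654. The number was 7 without SHR replicate 3 and 22 without WKY replicate 3. Thbs4 averaged 39.5, 118 and 214 in SHR at 12, 16 and 20 months, against 3.9, 5.25 and 6.87 in WKY at the same ages, with the difference of 12 months lower than the later ones by -1.34 ± 0.19 SE (limma adjusted p = 0.0025). The Col1a1 probe set that passed was not the gene's brightest. It averaged 104.5, 195 and 250.2 in SHR at the 3 ages, against 89.6, 82.0 and 86.5 in WKY (-0.94 ± 0.15 SE, limma adjusted p = 0.00518). With this probe set SHR thus stood close to WKY at 12 months and above it later. The brightest Col1a1 probe set averaged 208 ± 38 in SHR and 153 ± 50 in WKY at 12 months (SD, n = 4 each).

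Loxl1, which cross-links elastin, averaged 143, 269 and 329 in SHR at 12, 16 and 20 months, against 97.45, 101 and 92.5 in WKY (-0.91 ± 0.19 SE, limma adjusted p = 0.0404). That call was lost without SHR replicate 2, 3 or 4 or WKY replicate 1 or 2 (limma adjusted p up to 0.121). Ltbp2, a latent TGF-beta binding protein of elastic fibres, averaged 1.52, 8.88 and 23.25 in SHR, against 1.8, 1.6 and 2.07 in WKY (-0.50 ± 0.08 SE, limma adjusted p = 0.00388), so it lay at the floor of the arrays in both strains at 12 months. The actin-capping gene Capg averaged 69.4, 93.9 and 129.5 in SHR, against 61.35, 48.3 and 47.1 in WKY (-0.70 ± 0.14 SE, limma adjusted p = 0.0332), a call lost without SHR replicate 3 or 4 or WKY replicate 1 (up to 0.112).

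Tsc22d1 was called lower in SHR at 12 months and higher at both later ages, which the atrial light chains were not. Myl7 averaged 54.1, 41.6 and 96.6 in SHR at 12, 16 and 20 months, against 327, 37.6 and 54.4 in WKY (-2.38 ± 0.41 SE, limma adjusted p = 0.00746), and the strain difference missed the threshold at 16 and 20 months (limma adjusted p = 0.746 and 0.42). Myl4 averaged 12.98, 10.5 and 30.6 in SHR, against 22.7, 6.12 and 5.63 in WKY (-0.72 ± 0.13 SE, limma adjusted p = 0.00933), and passed at 20 months (0.72, limma adjusted p = 4.32e-05) but not at 12 or 16 months. Tsc22d1, a leucine zipper protein induced by TGF-beta, averaged 362, 680 and 745 in SHR, against 551, 422 and 460 in WKY (-1.19 ± 0.21 SE, limma adjusted p = 0.00746). At 12 months alone Tsc22d1 was lower in SHR by -0.57 (limma adjusted p = 0.0262), a call lost without SHR replicate 1 or 4 or WKY replicate 1 or 3 (up to 0.0889).

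The probe set with the opposite pattern was that of Rpl3l, a ribosomal protein of striated muscle. Rpl3l averaged 378, 302 and 222 in SHR at 12, 16 and 20 months, against 319, 465 and 422.5 in WKY (0.92 ± 0.17 SE, limma adjusted p = 0.00933), and its dimmer probe set was lower in SHR at 12 months (-0.36, limma adjusted p = 0.0225). The 2 remaining probe sets were 1 of Pld2, a phospholipase D, at -0.31 (limma adjusted p = 0.0404), and 1 without a gene symbol in the annotation, at -0.55 (limma adjusted p = 0.0441). Both calls were lost without most of the single arrays in turn (limma adjusted p up to 0.121 and 0.129).

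**Figure D5:**
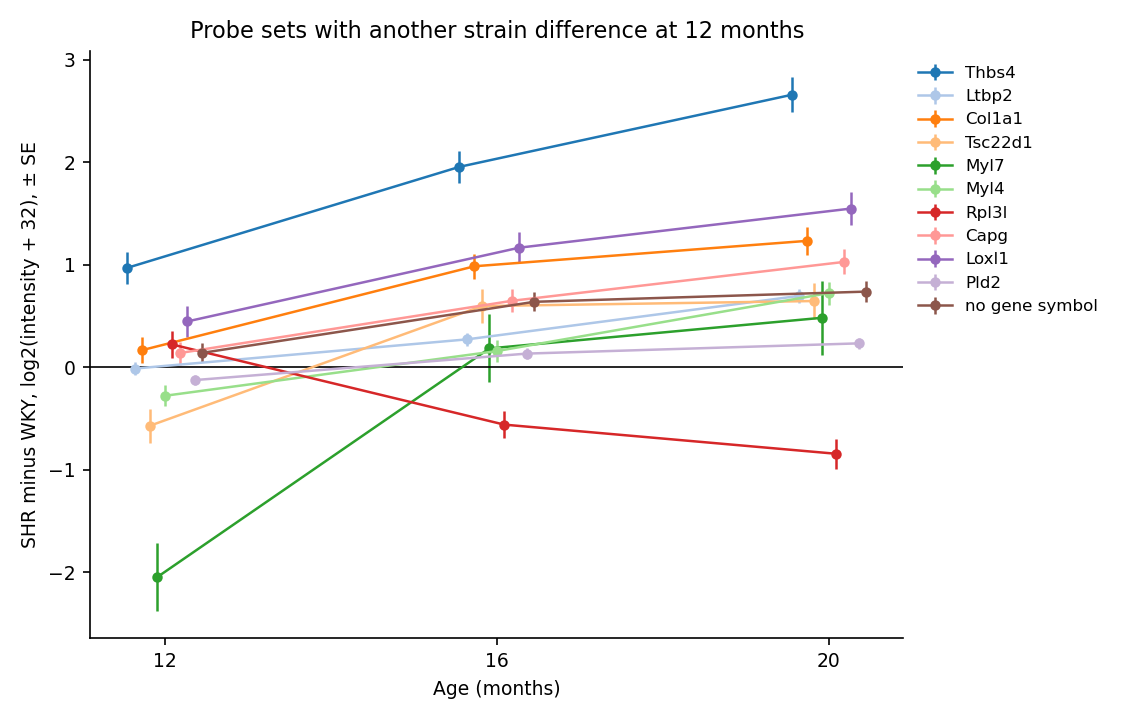
SHR-minus-WKY difference on the log2(intensity + 32) scale, with its standard error, at 12, 16 and 20 months for the 11 probe sets whose difference at 12 months was unlike the mean of the later ages. Of these, 10 lie lower at 12 months than later, among them Thbs4, Col1a1 and Loxl1, and Rpl3l lies higher.

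Markers of other cells and tissues were summed per array as a record of what each sample held. The cardiomyocyte sums were 36331 to 41533 in SHR and 33174 to 36151 in WKY, without overlap. Of the 15 markers tested 2 were higher (Pln and Csrp3) and 1 lower (Myh6), 20.0% called where 10.8% of all genes were. The sums for T, B and natural killer cells were 152 to 170 in SHR and 105 to 130 in WKY, and those for mast cells and neutrophils 158 to 182 in SHR and 112 to 125 in WKY, neither with overlap. In these lists 12 of 17 and 11 of 15 genes on the array had a mean intensity below 10, among them Cd3d, Cd8a, Kit and S100a8. The sums for nerve and Schwann cells were 378 to 405 in SHR and 299 to 355 in WKY, also apart, with 9 of 17 genes below 10. The median intensity of every SHR array was above that of every WKY array, and its part in these sums of mostly dim genes was not tested. Sums for the endothelial list (156 to 210 in SHR, 169 to 180 in WKY), the smooth muscle and pericyte list (1551 to 1831 in SHR, 1548 to 2061 in WKY) and the skeletal muscle list (3364 to 3437 in SHR, 3325 to 4776 in WKY) overlapped. Most of the skeletal muscle sum was Ckm (mean 3050 in SHR and 3530 in WKY). Most of the smooth muscle sum was Des (1280 and 1360). Of 7 endothelial markers tested, 1 was higher (Pecam1) and 1 lower (Icam2), 28.6% called where 10.8% of all genes were. Of 13 skeletal muscle markers tested, 2 were higher (Myh1 and Chrna1) and 0 lower (15.4% called, where 10.8% of all genes were). No marker was at 0 on all 8 arrays. The part of cell makeup in the gene results was not tested.

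The calls were set against the other probe sets of the same genes. For 178 called genes the array held 241 further tested probe sets. Of these, 49 were called in the same direction (20.3%), 7 were called in the opposite direction (for Csnk2a1, Sparc, Eef2 and Ppm1b), 117 were not called but had the same sign, and 68 were not called and had the opposite sign. Among the 91 that averaged at least 32 in both strains, 25 were called in the same direction (27.5%) and 3 in the opposite one. Genes described above with at least 1 other probe set of the opposite sign that did not pass were also Acvr2b, Atp5if1, Avpr2, Ece1, Gnai2, Got2, Hsp90b1, Hsph1, Lamb2, Lep, Mdh2 and Zfp36l1. Of these, Atp5if1, Avpr2, Gnai2, Hsp90b1 and Lep also had another probe set with the sign of the call. It passed for Atp5if1 alone (-0.35, limma adjusted p = 0.00776). Taking the measured genes in their order on the reference (GRCr8), 20.0% of 449 called genes had a called gene as next neighbour, and so did 20.5% of 3716 genes not called.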

How the data were processed

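The values analysed are probe set intensities on a linear scale that the authors deposited, 1 per probe set and array, for 23 arrays of rat left ventricle. The summarising program is not given in the sources used here. Each array's trimmed mean was 50.1, so the deposited intensities had been scaled to a common level. The instrument records deposited by the authors, of unit other, gave hybridization day, lot and cocktail. Of 8799 probe sets, 59 were controls. The platform annotation gave 1 symbol for 7006 of the rest, several for 308 and none for 1426, and 6985 were matched to the GRCr8 gene table by Entrez identifier. Genes were named from probe sets with 1 symbol.

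From the deposited intensities, log2(intensity + 32) was taken, a scale that understates changes of dim genes. A probe set was kept when 3 or more arrays had it over their own 30th percentile (7280 kept), and a model of 6 group means over 23 arrays was fitted with limma 3.58.1 (lmFit, contrasts, eBayes with trend) in R 4.3.3. P-values are two-sided and adjusted by Benjamini-Hochberg over all 7280 probe sets, and the threshold was 0.05. Levels are mean intensities with SD, and differences have standard errors. Precision is limited by the number of arrays. Where a fit left out an array, its group kept the spread estimated from all groups. Promoter windows are from RefSeq.

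The genes and lists were chosen with earlier results of these data known. The rule for named genes took the 15 largest rises and 15 largest falls among called genes without overlap, up to 5 of each sign unlike later ages, up to 4 genes of smallest p per list, and a fixed set of heart genes. Of the 154 genes so chosen the text names 120, picked after their values were seen. The 40 others with values, such as list members whose calls were lost without single arrays, were likewise named after their values were seen. Alternatives tried were the added constant, the filter, the normalization, the arrays in the fit, the hybridization day, the replicate number as a block, and leaving out each array. Same-numbered arrays of the 2 strains did not deviate together (correlations 0.167, -0.1, -0.1 and 0.045), so the numbers were not taken as pairs.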

Additional observations from a re-analysis of the deposited data

Results flagged for a closer look

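In 320 groups of 4 arrays, the groups of SHR and of WKY for 160 genes, 1 array stood far from the other 3 in 18 cases, as judged by its gap to the nearest array over the range of the group (critical value 0.829). Chance flags about 1 in 20 such groups. WKY replicate 3 was that array in 9 of the 18 cases, for Zfp36l1 (141.5), Trap1 (130.9), Sparc (1252.1), Cox5a (22.8), Xdh (57.7), Dgat1 (186.7), Dcn (1867.2), Tap1 (31.6) and Bckdhb (241.2). The other WKY cases were Rps27l (96.9) and Nppa (1509.8) in replicate 2, and Adam17 (7.8) and Slc4a3 (160.8) in replicate 4. In SHR they were Arhgap1 (27.7), Pde2a (25.4) and Ece1 (85.7) in replicate 1, and Slc16a1 (214.4) and Bckdhb (158.8) in replicate 2. These are deposited intensities.

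Among measures of whole arrays, SHR replicate 2 stood apart from the other SHR arrays on the first principal component (-7.92), WKY replicate 3 from the other WKY arrays on the second (-13.42), and 1 WKY array had a GAPDH ratio of 3' to 5' signal of 1.174, away from the other 3.

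The strain difference at 12 months was unlike the mean difference at 16 and 20 months for 11 probe sets by limma. On the log2 scale it was lower at 12 months by -2.38 for Myl7, -1.34 for Thbs4, -1.19 for Tsc22d1, -0.94 for Col1a1, -0.91 for Loxl1, -0.72 for Myl4, -0.70 for Capg, -0.55 for the probe set without a symbol, -0.50 for Ltbp2 and -0.31 for Pld2, and it was higher at 12 months by 0.92 for Rpl3l.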

How the results depend on the processing

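Under the 20 alternatives, 54 of the 141 called genes named above stayed called in each, 87 lost the call in at least 1, and 0 changed direction. With the hybridization day as a random block 33 of them were not called, and after quantile normalization 25 were not. The random block estimates the spread between days from groups that each lie within 1 strain, so it does not separate strain from run. The 577 probe sets called with it were all among the 824.

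The number of probe sets called was 835 with an added constant of 16, 805 with 64, 744 without a filter, 905 with a stricter filter, 787 after quantile normalization, 782 after cyclic loess and 699 with the 8 arrays of 12 months alone. Centring arrays on their medians gave 317 higher and 515 lower. The SHR arrays of the first day alone gave 314 (195 higher, 119 lower) and those of the second day 432 (259 higher, 173 lower). Leaving out 1 array gave 562 to 690 called, 323 to 439 higher and 209 to 316 lower. The probe sets unlike later ages came to 7 with a random block for the day, 6 with the first day, 1 with the second day, and 7 to 22 with 1 array left out. The cause of these changes was not tested, except that fewer arrays entered the fits of single days and of left-out arrays.

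With the replicate number as a block, 793 probe sets were called (471 higher, 322 lower), and 9 were unlike later ages. The titles give the numbers, but same-numbered arrays did not deviate together.

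Of the genes that were not called, 4 changed sign. Nppb was at -0.014 with arrays centred on their medians, at -0.097 with the first day alone, and between -0.023 and 0.174 without single arrays, below 0 without SHR replicate 2 (-0.010), SHR replicate 3 (-0.023) or WKY replicate 3 (-0.005). Atp2a2 was at -0.185 after quantile normalization and between -0.042 (without WKY replicate 3) and 0.215 without single arrays. Fn1 was at -0.009 with arrays centred on their medians, and Ltbp2 between -0.021 and 0.007 without single arrays (0.007 without WKY replicate 1). Values near the floor of the arrays carry little order, and 4 arrays per group limit the precision.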
